A study of Homo sapiens with 6 samples.

Results

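The genes of the actin cytoskeleton and of serum response factor (SRF) form a set of 10 named genes, ACTB, ACTG1, SRF, VCL, FLNA, TAGLN, TAGLN2, TPM1, MYL9 and CFL1. They were chosen by symbol, as actins, actin-binding proteins and SRF, by a rule that uses no measured value, although earlier results of these data were known when the set was drawn up. All 10 stood among the 28278 genes listed for each library, and 9 of them, all but MYL9, were among the 15307 genes with enough counts to be tested. The RNA-Seq compared HT29, an established human colorectal adenocarcinoma cell line of epithelial morphology, after treatment with an siRNA against the glycolytic enzyme aldolase A (siALDOA) or with a scrambled siRNA (siControl). Both groups thus carried an siRNA, total RNA was taken after 48 h, and each group had 3 libraries that the labels call biological replicates. The labels name a siRNA against ALDOA in a single cell line, and effects of that siRNA on other transcripts cannot be told apart from the loss of ALDOA in these data. What kept the replicates separate is not described, so the p-values measure the spread between these libraries.

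Actin filaments are built from globular actin and are shaped by proteins that cut, cap, cross-link or contract them. The cytoplasmic beta- and gamma-actins carry the cortex, the stress fibres and the microvilli of an epithelial cell, and aldolase is one of the glycolytic enzymes known to bind filamentous actin. SRF is a transcription factor that binds an A/T-rich element named the CArG box. It works with myocardin-related factors (MRTFs), which are held back by globular actin and drive cytoskeletal genes, or with ternary complex factors, which drive immediate early genes. SRF and many actin genes are themselves classical SRF targets.

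The promoters of these genes were searched for the SRF binding element, and the windows of the 3 members that were lower after siALDOA are shown first. RefSeq promoter windows of GRCh38.p14, which run from 250 bases before to 50 bases after a transcription start, were found for 7 of the 10 members. The window of ACTG1, that of FLNA and 1 of the 2 windows of SRF held the CArG box, those of VCL, TAGLN2, TPM1 and CFL1 did not, and ACTB, TAGLN and MYL9 had no window. The strict consensus of the box, which reads as its own reverse complement and so covers both strands, was found in 438 of 27305 genes with a window (1.6%), or 454 of 35116 windows (1.29%). Each sequence below is the 250 bases before the start, 5′ to 3′, with the CArG boxes in capitals. They lie at chr6:43171019-43171268 on the plus strand for SRF, at chr17:81512800-81513049 on the minus strand for ACTG1 and at chrX:154374635-154374884 on the minus strand for FLNA.
SRF: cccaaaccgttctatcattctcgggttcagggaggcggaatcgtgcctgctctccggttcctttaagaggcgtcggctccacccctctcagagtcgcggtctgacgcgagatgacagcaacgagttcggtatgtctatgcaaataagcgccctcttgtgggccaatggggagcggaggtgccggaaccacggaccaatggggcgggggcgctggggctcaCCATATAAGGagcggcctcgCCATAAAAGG
ACTG1: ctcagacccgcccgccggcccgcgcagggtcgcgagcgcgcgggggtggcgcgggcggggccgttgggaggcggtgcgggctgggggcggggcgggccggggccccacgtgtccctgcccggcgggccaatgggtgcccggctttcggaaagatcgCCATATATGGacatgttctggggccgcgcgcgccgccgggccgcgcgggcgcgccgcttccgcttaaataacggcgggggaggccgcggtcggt
FLNA: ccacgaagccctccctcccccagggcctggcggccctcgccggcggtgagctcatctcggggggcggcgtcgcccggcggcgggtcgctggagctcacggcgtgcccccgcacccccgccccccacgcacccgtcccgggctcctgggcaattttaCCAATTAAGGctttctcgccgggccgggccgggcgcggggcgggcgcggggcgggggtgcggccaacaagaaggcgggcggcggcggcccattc

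SRF held 2 boxes, whose first bases lay 30 and 10 bases before the start, so that the second box ended at the start itself. The boxes of ACTG1 and FLNA both began 94 bases before their starts. A match describes these letters only, and binding of SRF was not measured.

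Among the members, FLNA, SRF and ACTG1 were down-regulated in siALDOA cells. Their levels fell by 28.8%, 25.7% and 16.8%, and none of the members was up-regulated. They encode filamin A, which cross-links actin filaments into networks, the transcription factor itself and gamma-actin. ACTB, the beta-actin gene, had almost the same mRNA level in both groups, as did CFL1. In numbers, 3 of the 9 tested members (33.3%) passed a Benjamini-Hochberg adjusted p of 0.05 in edgeR's quasi-likelihood test, all 3 lower. None was called higher by edgeR, DESeq2 or limma-voom, and TPM1 was the 1 member higher at an unadjusted p of 0.05. Among all 15307 genes tested 9.66% passed, 4.36% higher (668 genes) and 5.29% lower (810 genes). With scaling by library totals only, 896 genes were higher and 279 lower, and 23.7% of the calls were lower in place of 54.8%. As most members have many counts, on which the power of the test depends, the 5561 genes at or above the mean of the lowest tested member, 38.6 CPM (counts per 1e6 scaled counts, not per length), serve as a closer background, and 15.7% of them passed, 6.44% higher and 9.3% lower. The same 3 members passed an unadjusted p of 0.01, which 12.5% of all genes tested did. The median log2 fold change of the 9 members was -0.07, beside 0.0016 for all genes tested. A negative value was found in 7 of the 9 members and in 7612 of the 15307 genes tested. In 6 of the 9 members the CPM ranges of the groups did not overlap, which held for 27.7% of all genes tested and for 36.4% of those as abundant as the members.

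**Figure D1:**
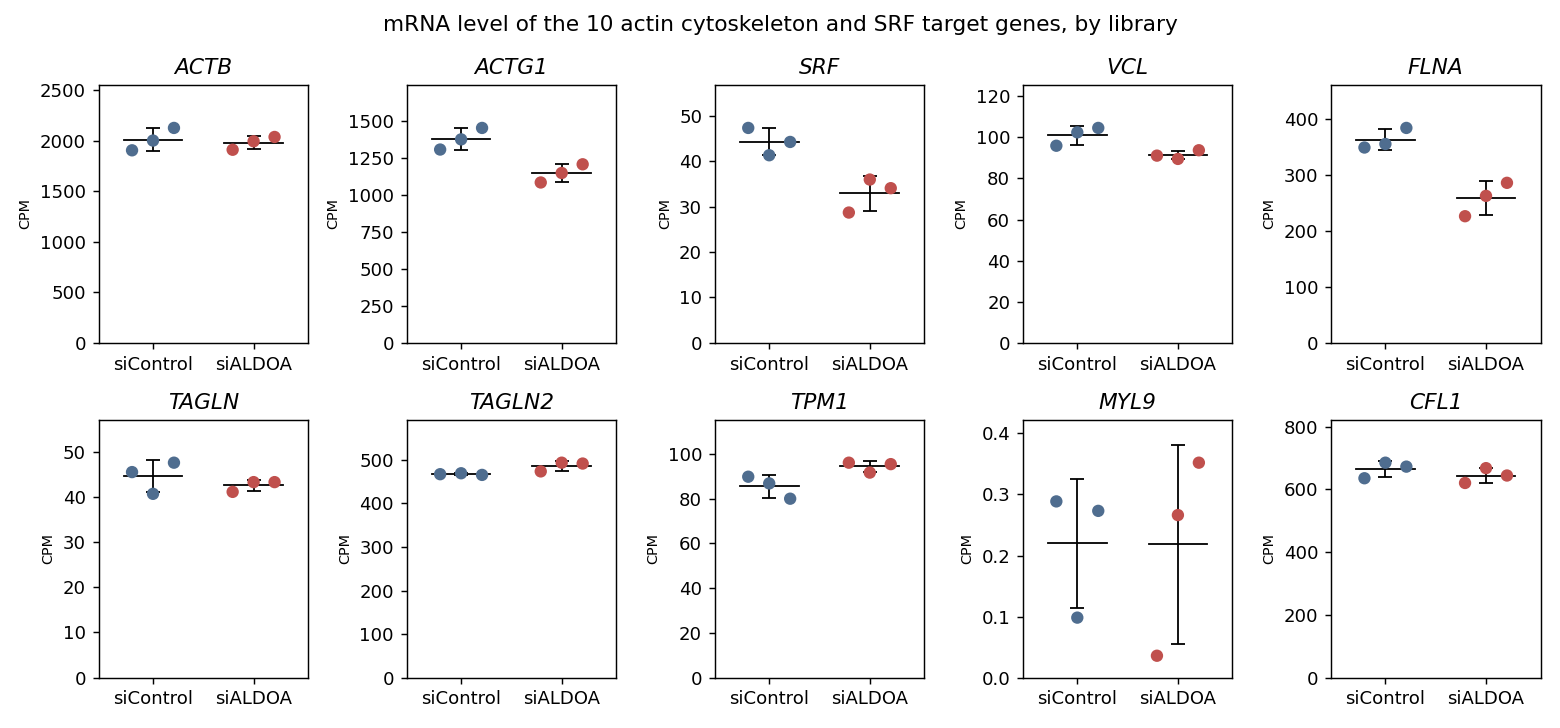
Level of each member in every library in CPM, with one panel per gene and its own axis from 0, points for single libraries and a horizontal line with its error for the mean and SD of the 3 libraries of a group. The siALDOA points of ACTG1, SRF and FLNA lie below all siControl points, while those of ACTB, TAGLN and CFL1 overlap them.

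The knockdown itself was seen in every library, since ALDOA reached 632 ± 38.2 CPM (SD, n = 3) with siControl but 289 ± 13.7 CPM with siALDOA, a log2 fold change of -1.13 (adjusted p = 6.95e-11, edgeR). The libraries held 27277538 to 33237914 counts. Counts under the 20 ribosomal RNA gene symbols made up 13.1% of the total in siALDOA replicate 1. They made up 17.4% and 15.3% in siControl replicates 1 and 2, and 7.71% to 8.15% in the other 3 libraries. Libraries of both groups thus stood apart in this respect. Some of these symbols carried the same counts, so reads may be counted more than once. The values are therefore shares of listed counts and not the ribosomal RNA content of a library. The epithelial label was checked against marker genes. Of 12 colon epithelium markers 11 were tested (LGALS4 was listed at 0), with the keratin KRT8 at a mean of 5344 CPM. CDH1, KRT20 and VIL1 were at 513, 317 and 288 CPM, but the intestinal genes CDX1, CDH17, GPA33 and CDX2 were at 4.94, 5.25, 5.36 and 13.4 CPM. The summed level of the list was 9480 to 9810 CPM with siALDOA and 10000 to 10600 CPM with siControl. In that list KRT19 was higher, with a log2 fold change of 0.38, and KRT18 lower, at -0.28. The 12 fibroblast and smooth muscle markers summed to 8.08 to 11.5 CPM with siALDOA and 7.01 to 9.85 CPM with siControl, with 4 tested, 0 called by edgeR, DESeq2 or limma-voom, 0 at an unadjusted p of 0.05, and CNN1 and COL1A2 listed at 0. The 6 blood cell markers stayed at or below 0.282 CPM in sum, with none tested. The epithelial sum, most of it from keratins, was lower in every siALDOA library than in every siControl library, while 9 of its 11 tested genes did not pass, and its part in the members' values was not tested. In a bulk library, fewer cells of a type and less RNA per cell cannot be told apart.

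Actins come first by level. ACTB (ENSG00000075624, chromosome 7, 5526409 to 5563902, minus strand of hg38) was at 1910, 1994 and 2036 CPM in siALDOA replicates 1 to 3 and at 1905, 2001 and 2126 CPM in siControl replicates 1 to 3. The siALDOA values all lay within the siControl range, with siControl replicate 3 the highest library. The log2 fold change was -0.02 with a standard error (SE) of 0.073 and an adjusted p of 0.893 (edgeR), and its 95% interval ran from -11.4% to 9.48%. ACTB is often used as a reference gene, and a change within that interval would not have been detected here.

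ACTG1 (ENSG00000184009, chromosome 17, 81509413 to 81523847, minus strand), whose product differs from beta-actin by only a few residues at its start, was at 1084, 1148 and 1206 CPM with siALDOA. With siControl it was at 1306, 1375 and 1452 CPM. All 3 siALDOA values lay below all 3 siControl values, and the log2 fold change was -0.27 (SE 0.068, adjusted p = 0.0157, edgeR, 95% interval -0.41 to -0.12). This call was the least firm of the 3. It was lost without siALDOA replicate 2 (log2 fold change -0.27, adjusted p = 0.0624), without siControl replicate 2 (-0.27, 0.058), without siControl replicate 3 (-0.23, 0.0967) and with scaling by library totals only (-0.19, 0.26). With totals taken after the ribosomal RNA genes were left out it was kept, at -0.26 with an adjusted p of 0.00192.

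The balance of both cytoplasmic actins was also read as a ratio of counts within each library, which needs no scaling between libraries. There were 1.763, 1.737 and 1.688 ACTB counts per ACTG1 count with siALDOA, and 1.458, 1.456 and 1.464 with siControl. The groups did not overlap, and the difference of the mean log2 ratios was 0.24. An exact two-sided permutation test gave p = 0.1, the smallest that 20 arrangements of 3 against 3 libraries allow, and 0.15 after adjustment over the 3 ratios tested. The ratios were chosen after the values were seen. A ratio shows unequal change and not which of the genes moved.

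The muscle actins were at or near 0. ACTC1 and ACTG2 were listed at 0 counts in every library, ACTA1 had at most 14 counts, and ACTA2 had a mean of 0.811 ± 0.0293 CPM with siALDOA and 0.488 ± 0.0816 CPM with siControl, with an adjusted p of 0.300 (edgeR). Reads can be split between ACTB, ACTG1 and their processed copies. Of 18 near copies of the members 8 were tested and 0 passed in edgeR, DESeq2 or limma-voom, with 0 also at an unadjusted p of 0.05 in edgeR, and the pseudogene ACTG1P20 had 54 to 111 counts against 30161 or more for ACTG1.

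**Figure D2:**
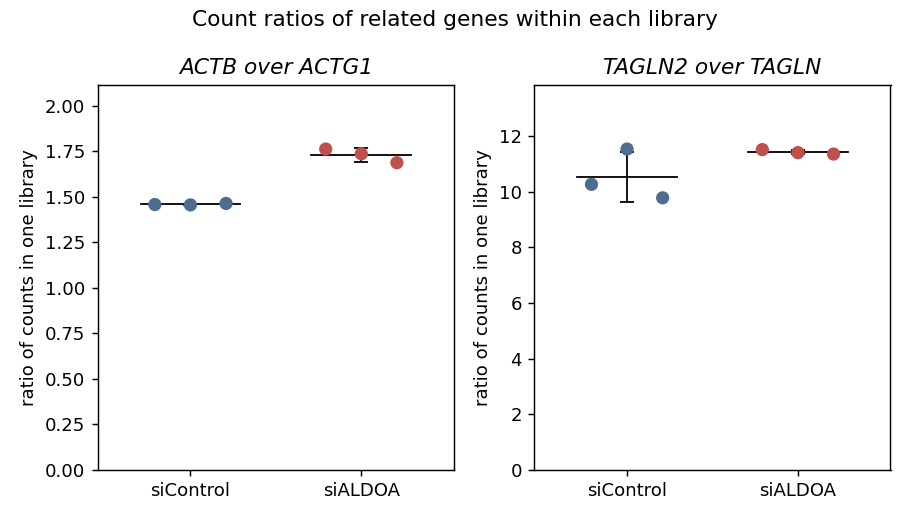
Ratio of counts in each library for 2 pairs of related genes, with siControl and siALDOA libraries as points and lines for the mean and SD of each 3 libraries, on axes from 0. The ACTB to ACTG1 ratio is above 1.68 in the siALDOA libraries and below 1.47 in the siControl libraries, and the TAGLN2 to TAGLN ratios overlap.

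SRF and its cofactors are the regulators of this set. SRF (ENSG00000112658, chromosome 6, 43171269 to 43181506, plus strand) was at 28.7, 36.0 and 34.1 CPM with siALDOA and at 47.3, 41.3 and 44.2 CPM with siControl. These levels rest on 799 to 1081 counts per library with siALDOA and 1261 to 1476 with siControl. The ranges were well apart, with the lowest value in siALDOA replicate 1, and the log2 fold change was -0.43 (SE 0.085, adjusted p = 0.00231, edgeR, 95% interval -0.61 to -0.25). SRF was called lower in all 17 alternative settings, at -0.50 to -0.34. In the 3 libraries with like shares of ribosomal RNA counts, SRF was at 36.0 and 34.1 CPM in siALDOA replicates 2 and 3 and at 44.2 CPM in siControl replicate 3. With only that control library, these values are no test of ribosomal RNA content.

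Of the 9 genes of the list of SRF and its cofactors 8 were tested, with 1 higher and 1 lower and a median log2 fold change of -0.10. The MRTF genes did not pass the test. MRTFA was at 18.1 ± 3.60 CPM with siALDOA and 20.6 ± 2.48 CPM with siControl (adjusted p = 0.411), and MRTFB at 89.3 ± 4.86 and 84.0 ± 3.27 CPM (adjusted p = 0.439, edgeR). Of the ternary complex factors, ELK4 was up-regulated from 66.7 ± 1.56 to 78.8 ± 5.19 CPM (log2 fold change 0.24, adjusted p = 0.0218). That call was lost when siALDOA replicate 1, siALDOA replicate 3, siControl replicate 2 or siControl replicate 3 was left out, with adjusted p-values of up to 0.11. ELK1 and ELK3 had log2 fold changes of -0.16 and -0.30 with adjusted p-values of 0.145 and 0.140. Myocardin (MYOCD), the muscle cofactor, was listed at 0.

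FLNA (ENSG00000196924, chromosome X, 154348524 to 154374634, minus strand) was the most reduced member. It was at 226, 262 and 285 CPM with siALDOA and at 348, 355 and 383 CPM with siControl, so the highest siALDOA library stayed well below the lowest siControl library. The log2 fold change was -0.49 (SE 0.071, adjusted p = 9.28e-05, edgeR, 95% interval -0.64 to -0.34), and FLNA was called lower in all 17 alternative settings, at -0.57 to -0.40. As with SRF, siALDOA replicate 1 was the lowest library, and without it the log2 fold change was -0.40 for FLNA and -0.34 for SRF. In the libraries with like shares of ribosomal RNA counts, FLNA was at 262 and 285 CPM in siALDOA replicates 2 and 3 and at 383 CPM in siControl replicate 3. That was the only such control library and the highest of its group for FLNA. These values are thus no test of ribosomal RNA content. No exon of FLNA, ACTB, ACTG1 or SRF overlapped another gene listed in the files.

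VCL (ENSG00000035403, chromosome 10, 73995193 to 74121363, plus strand) encodes vinculin, which ties actin filaments to adhesion sites. It was at 91.1, 89.5 and 93.7 CPM with siALDOA and at 95.9, 102 and 105 CPM with siControl. All siALDOA values were lower, but the log2 fold change of -0.14 (SE 0.060, 95% interval -0.27 to -0.02) did not pass over all genes, with an adjusted p of 0.147 (edgeR). AP3M1 on the other strand covers 11.1% of the VCL exon bases, and without a stated strand setting the reads of both genes cannot be told apart there.

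Next come the genes of filament-coating proteins. TPM1 (ENSG00000140416, chromosome 15, 63042620 to 63071915, plus strand), a tropomyosin that winds along the filament, was at 96.1, 91.7 and 95.5 CPM with siALDOA and at 89.9, 86.9 and 80.0 CPM with siControl. The siALDOA values were all higher, yet the log2 fold change of 0.14 (SE 0.062, 95% interval 0.01 to 0.27) did not pass, with an adjusted p of 0.168 (edgeR). TPM1-AS on the other strand covers 18% of its exon bases. TAGLN2 (ENSG00000158710, chromosome 1, 159918107 to 159925507, minus strand), the transgelin of non-muscle cells, was at 473, 493 and 491 CPM with siALDOA and at 467, 469 and 465 CPM with siControl. Here too the siALDOA values were all higher, by a log2 fold change of 0.06 (SE 0.053, adjusted p = 0.568, edgeR).

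TAGLN (ENSG00000149591, chromosome 11, 117199370 to 117207464, plus strand), the smooth muscle transgelin SM22 and a classical MRTF-SRF target, was at 41.1, 43.3 and 43.3 CPM with siALDOA and at 45.5, 40.7 and 47.6 CPM with siControl. The groups overlapped, and the log2 fold change was -0.07 (SE 0.073, adjusted p = 0.639, edgeR). PCSK7, on the opposite strand, covers 34.1% of the TAGLN exon bases. PCSK7 had 1778 to 1999 counts per library with siALDOA and 2008 to 2322 with siControl, beside 1144 to 1300 and 1241 to 1567 for TAGLN. The share of TAGLN counts that came from PCSK7 transcripts cannot be told apart without strand. With TAGLN2 set over TAGLN, 11.5, 11.4 and 11.4 counts with siALDOA stood beside 10.3, 11.5 and 9.79 with siControl (difference of the mean log2 ratios 0.12, exact permutation p = 0.4, also 0.4 adjusted).

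MYL9 (ENSG00000101335, chromosome 20, 36541497 to 36551447, plus strand), a regulatory light chain of smooth muscle and non-muscle myosin II, was near the limit of detection. It had 1, 8 and 10 counts with siALDOA and 9, 3 and 9 counts with siControl, or 0.218 ± 0.163 and 0.220 ± 0.106 CPM, where 3 counts correspond to 0.091 to 0.108 CPM. It was below the filter on low counts, and without a filter its log2 fold change was -0.02 with an SE of 0.873 (adjusted p = 0.993 over 20970 genes, edgeR). A difference was not detectable at this depth. The sister light chain genes MYL12A, at 278 ± 4.21 CPM with siALDOA and 266 ± 13.7 CPM with siControl, and MYL12B, at 362 ± 15.5 and 366 ± 16.8 CPM, did not pass either (adjusted p = 0.533 and 0.900).

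CFL1 (ENSG00000172757, chromosome 11, 65823022 to 65862026, minus strand) encodes cofilin, which severs filaments. It was at 621, 668 and 644 CPM with siALDOA and at 636, 685 and 673 CPM with siControl. The groups overlapped, with a log2 fold change of -0.04 (SE 0.058, adjusted p = 0.703, edgeR) and a 95% interval of -10.8% to 5.43%. MUS81 on the other strand covers 12.9% of its exon bases.

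**Figure D3:**
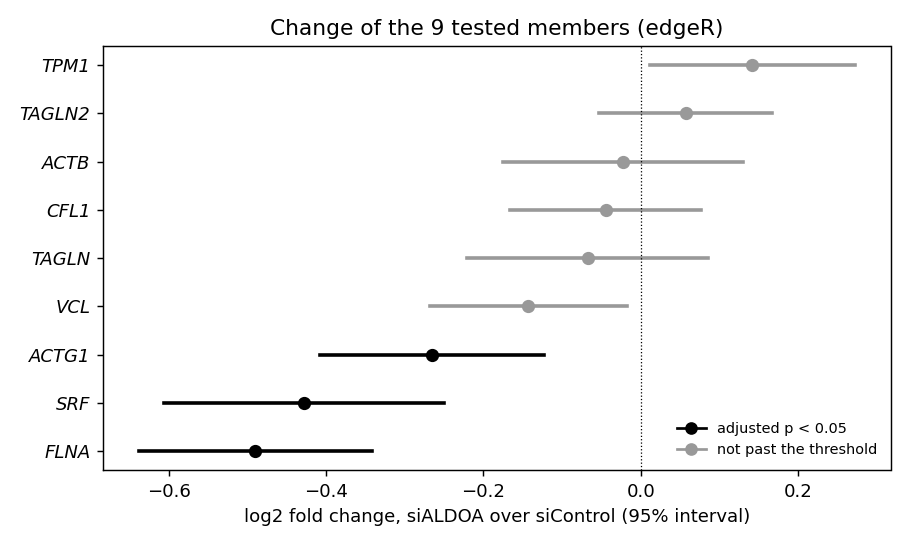
Log2 fold change of siALDOA over siControl for each of the 9 tested members, with its 95% interval from edgeR's quasi-likelihood fit. The points of FLNA at -0.49, SRF at -0.43 and ACTG1 at -0.27 pass the adjusted p of 0.05, and the other 6 do not.

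To set the levels of the members in order, they were taken per length, as CPM per kilobase (kb) of the canonical transcript in siControl cells. ACTB was highest at 1109 ± 61.2, followed by ACTG1 at 718 ± 38.1, CFL1 at 534 ± 20.7 and TAGLN2 at 340 ± 1.39 CPM per kb. TPM1 at 70.3 ± 4.14, FLNA at 42.6 ± 2.19 and VCL at 18.4 ± 0.820 CPM per kb formed the middle of the order. TAGLN at 11.8 ± 0.934 and SRF at 10.5 ± 0.711 CPM per kb overlapped in their library ranges, the one pair of neighbours that did, and MYL9 was last at 0.0790 ± 0.0379 CPM per kb. The 3 members that were lower thus came from the upper, the middle and the lower part of this order. The order rests on the length of the canonical transcript, such as 3.79 kb for TAGLN, 2.79 kb for MYL9 and 1.22 kb for TPM1. Other transcripts of a gene were not considered, and with another length a gene could change its place.

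The rest of the actin and SRF genes was taken as 114 further genes in 10 lists. The lists overlap each other and were written by hand, and the counts of a list below include any member it holds. Of the 114 genes 102 were tested, 4 were higher and 13 lower (16.7% called), with a median log2 fold change of -0.03. Among all genes tested 9.66% passed, 4.36% higher and 5.29% lower. Among the genes at or above 38.6 CPM 15.7% passed, 6.44% higher and 9.3% lower. The 102 genes were not cut at that level, and some, such as ACTA2, lay far below it. Neither share is thus a background of like abundance, and the shares were not tested against each other. The count of lower genes fell to 6 without siControl replicate 3 and to 5 with library totals only, and the count of higher genes was 2 without siALDOA replicate 3, siControl replicate 2 or siControl replicate 3. Of the 17 called genes, 7 kept their call in all 17 alternative settings. These were CNN2, ENAH, EZR, LIMS1, MYH14, PDLIM7 and TPM4. Listed at 0 counts in every library were 7 of the 114 genes, ACTC1, ACTG2, CNN1, ZYX, MYOCD, FHL1 and EGR3. Zyxin is an adhesion protein of most adherent cells, so a 0 is given here only as the listed value.

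Among 30 cytoskeletal targets of MRTF and SRF, 23 were tested, 2 were higher and 6 lower, and the median log2 fold change was -0.14. The 6 lower genes were the members FLNA, SRF and ACTG1, the myosin heavy chain gene MYH9 and 2 genes of PDZ-LIM proteins at the actin filament. PDLIM7 was at 12.6 ± 1.00 CPM with siALDOA and 17.7 ± 1.34 CPM with siControl (log2 fold change -0.49, adjusted p = 0.00411, edgeR). PDLIM5 was at 121 ± 1.17 and 138 ± 3.09 CPM (-0.19, adjusted p = 0.0305), and its call was kept in only 1 of the 6 fits that left out 1 library and was lost with library totals only (adjusted p = 0.398). Both higher genes belong to filament-coating proteins. TPM4, a non-muscle tropomyosin, was at 225 ± 4.46 CPM with siALDOA and 157 ± 3.37 CPM with siControl (log2 fold change 0.52, adjusted p = 1.48e-06, edgeR). CNN2, the calponin of non-muscle cells, was at 271 ± 9.57 and 227 ± 10.4 CPM (0.25, adjusted p = 0.00609). Targets of SRF thus moved in both directions. LIMA1, a target that did not pass, was at 355 ± 20.4 and 366 ± 7.92 CPM (adjusted p = 0.713).

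Among 11 immediate early targets of SRF and its ternary complex factors, 10 were tested, 0 were higher and 2 lower, SRF and EGR1, with a median log2 fold change of -0.01. EGR1, a zinc finger factor induced by growth signals, was at 19.3 ± 3.72 CPM with siALDOA and 25.5 ± 2.65 CPM with siControl (log2 fold change -0.40, adjusted p = 0.0362, edgeR). Its call was kept in 2 of the 6 fits that left out 1 library, and was lost without siALDOA replicate 1, siALDOA replicate 3, siControl replicate 2 or siControl replicate 3, with adjusted p-values of up to 0.196, and with library totals only (adjusted p = 0.107). Without siALDOA replicate 1 its log2 fold change was -0.26, and in the other 5 such fits it was -0.53 to -0.31. IER2 was at 125 ± 5.29 CPM with siALDOA and 112 ± 4.80 CPM with siControl (log2 fold change 0.16, adjusted p = 0.103), JUNB at 73.3 ± 5.72 and 83.2 ± 7.49 CPM (adjusted p = 0.130), and MCL1 at 356 ± 2.25 and 354 ± 1.49 CPM (adjusted p = 0.927).

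**Figure D4:**
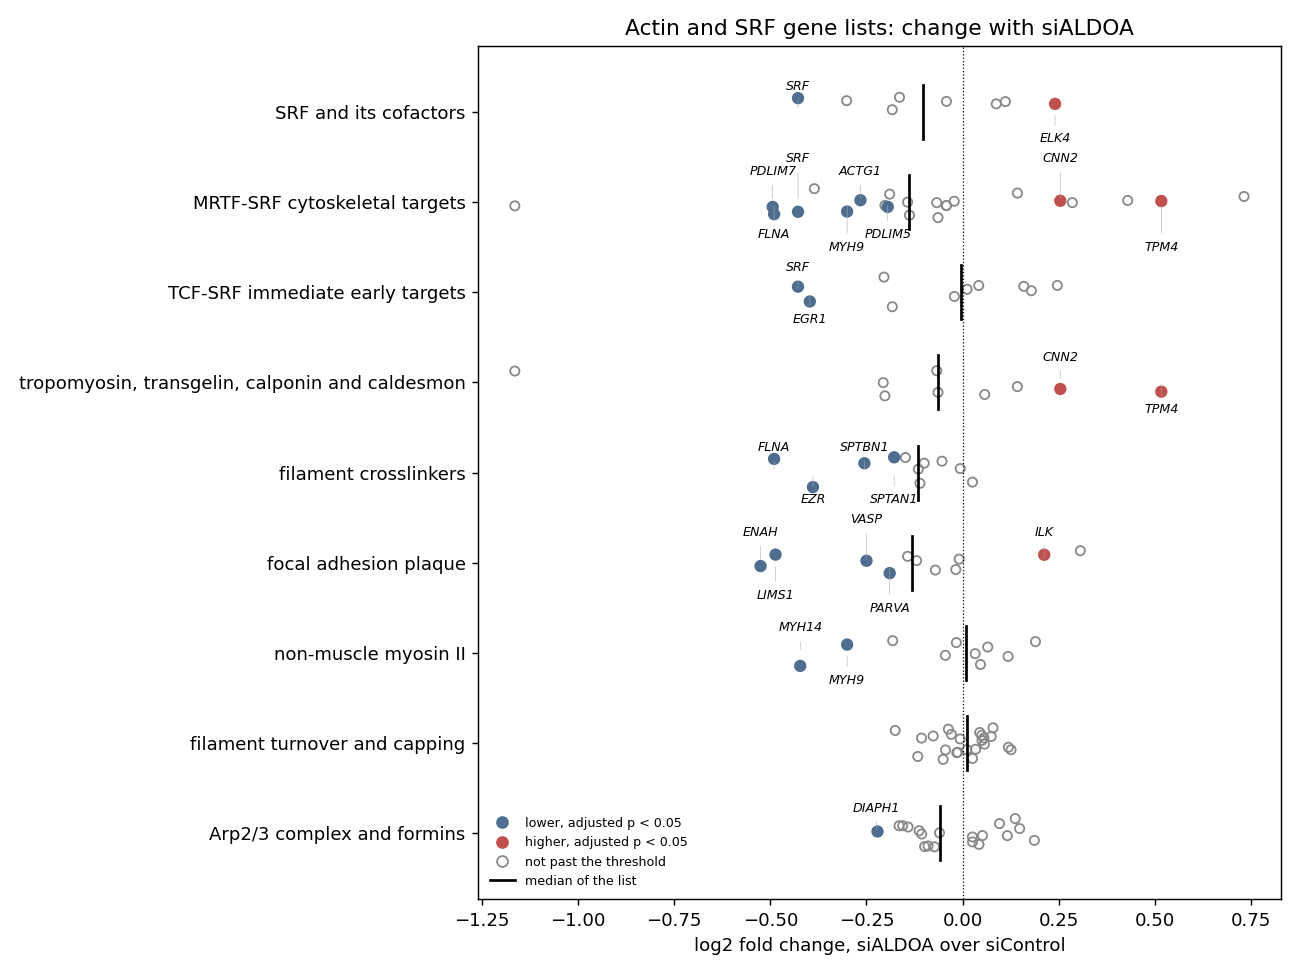
Log2 fold change of each tested gene of 9 lists, 1 point per gene, with filled points for genes past the adjusted p of 0.05 and a bar for the median of the list. Lower genes stand among MRTF-SRF targets, crosslinkers, adhesion plaque genes and myosins, TPM4, CNN2, ILK and ELK4 are higher, and no gene of filament turnover and capping is past the threshold.

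Tropomyosins, transgelins, calponins and caldesmon gave 9 tested genes of 11, with 2 higher (TPM4 and CNN2), 0 lower and a median of -0.06. TPM3, another tropomyosin gene, was at 670 ± 8.45 CPM with siALDOA and 701 ± 32.0 CPM with siControl (adjusted p = 0.554). TPM2 was at 30.4 ± 1.93 and 34.9 ± 0.215 CPM (adjusted p = 0.107). The tropomyosin that passed was thus TPM4, at a log2 fold change of 0.52 beside 0.14 for TPM1, -0.20 for TPM2 and -0.06 for TPM3. The differences among these 4 values were not tested.

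Crosslinkers, the group of FLNA, had 11 tested genes of 13, with 0 higher, 4 lower (FLNA among them) and a median of -0.12. Of the 11, 10 had a negative value. Among all 15307 genes tested 5.29% were called lower and 7612 had a negative value. EZR, which encodes ezrin, a linker of actin to the apical membrane, was at 243 ± 8.57 CPM with siALDOA and 319 ± 13.9 CPM with siControl (log2 fold change -0.39, adjusted p = 9.75e-05, edgeR). The spectrin genes SPTBN1, at 334 ± 19.5 and 399 ± 7.62 CPM (-0.26, adjusted p = 0.0059), and SPTAN1, at 192 ± 0.796 and 217 ± 3.70 CPM (-0.18, adjusted p = 0.04), were also lower. SPTBN1 lost its call without siControl replicate 3 (adjusted p = 0.0524), SPTAN1 kept it in 1 of the 6 fits that left out 1 library, and both lost it with library totals only. ACTN4, alpha-actinin 4, did not pass, at 1098 ± 89.2 and 1186 ± 28.3 CPM (adjusted p = 0.352).

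In the adhesion plaque, where vinculin acts, 12 of 14 genes were tested, 1 was higher and 4 lower, with a median of -0.13. ENAH, an actin polymerase of the Ena/VASP family, was at 70.1 ± 3.25 CPM with siALDOA and 101 ± 2.64 CPM with siControl (log2 fold change -0.53, adjusted p = 6.25e-06, edgeR). Its relative VASP was at 196 ± 7.21 and 232 ± 6.53 CPM (-0.25, adjusted p = 0.00591) and lost its call without siControl replicate 3 (adjusted p = 0.059) and with library totals only. The other 3 called genes encode the partners of the ILK-PINCH-parvin complex, which couples integrins to actin. LIMS1 (PINCH1) was at 28.2 ± 3.15 and 39.4 ± 3.37 CPM (-0.49, adjusted p = 0.00115) and PARVA at 98.0 ± 3.07 and 112 ± 3.79 CPM (-0.19, adjusted p = 0.0463). ILK was higher, at 110 ± 7.42 and 95.1 ± 3.32 CPM (0.21, adjusted p = 0.0385). PARVA and ILK each kept their call in only 1 of the 6 fits that left out 1 library, and PARVA also lost it with library totals only (adjusted p = 0.449), with these totals after ribosomal RNA genes were left out (0.0548) and with upper quartile scaling (0.054).

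Of 11 genes of non-muscle myosin II and its regulators 10 were tested, 0 were higher and 2 lower, with a median of 0.01. Both lower genes encode heavy chains. MYH14 was at 546 ± 49.6 CPM with siALDOA and 732 ± 25.4 CPM with siControl (log2 fold change -0.42, adjusted p = 2.02e-04, edgeR), and MYH9 at 562 ± 22.5 and 692 ± 23.9 CPM (-0.30, adjusted p = 0.00171). MYH9 lost its call with library totals only (adjusted p = 0.113) and kept it in all 6 fits that left out 1 library. The filament turnover and capping list, the group of CFL1, had all 23 genes tested and 0 called in edgeR, DESeq2 or limma-voom, with 0 higher and 2 lower at an unadjusted p of 0.05 in edgeR, a median of 0.01 and log2 fold changes of -0.18 to 0.13. It held the abundant monomer-binding genes TMSB10, at 526 ± 15.6 and 485 ± 47.6 CPM, TMSB4X, at 502 ± 73.6 and 477 ± 9.32 CPM, and PFN1, at 493 ± 45.2 and 503 ± 23.1 CPM. Of 19 genes of the Arp2/3 complex, its activators and the formins, all tested, only DIAPH1 passed. This formin, which elongates unbranched filaments, was at 165 ± 3.29 and 192 ± 8.36 CPM (-0.22, adjusted p = 0.0144), and it lost its call without siALDOA replicate 2, without siControl replicate 3 (adjusted p of up to 0.126) and with library totals only.

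Outside the members, the boxes of the called targets are shown in short windows to set lower and higher genes side by side. The CArG boxes, in capitals, began 105 and 83 bases before the start of EGR1 (chr5:138465344-138465435, plus strand), 89 bases before that of CNN2 (chr19:1026489-1026558, plus strand) and 173 bases before that of TPM4 (chr19:16067335-16067404, plus strand).
EGR1, lower: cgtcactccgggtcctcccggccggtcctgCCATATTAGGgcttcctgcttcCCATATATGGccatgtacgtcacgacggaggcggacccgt
CNN2, higher: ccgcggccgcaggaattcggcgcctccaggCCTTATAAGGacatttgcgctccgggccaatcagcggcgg
TPM4, higher: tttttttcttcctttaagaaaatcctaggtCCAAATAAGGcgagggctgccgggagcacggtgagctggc

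The first of these genes was lower after siALDOA and the other two were higher, so a box close to the start was found on both sides. Among the MRTF-SRF targets 12 of 26 with a window (46.2%) held a box, beside 1.6% of all genes. The list was drawn up from known SRF targets, so that share is a description of the list. Of all genes tested, 168 had a box in a window, of which 8 were higher and 15 lower (13.7% called), and their median log2 fold change was -0.02. The 11176 tested genes with a window but no box had 505 higher and 618 lower (10% called) and a median of -0.0006. The shares were not tested against each other. Of the members with a window, the 3 with a box were lower and the 4 without one did not pass. ACTB and TAGLN, both on the list of MRTF-SRF targets, did not pass and had no window. They are thus missing from this split, which cannot show whether a box goes with a fall. Among the other listed genes with a box, ACTN1, FHL2, MYLK, ROCK2, EGR2, TES and TGFB1I1 did not pass. Of the 13 other listed genes that were lower, 12 had a window and only EGR1 held a box. The 11 without a box included ENAH, EZR, LIMS1, MYH14 and PDLIM7.

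**Figure D5:**
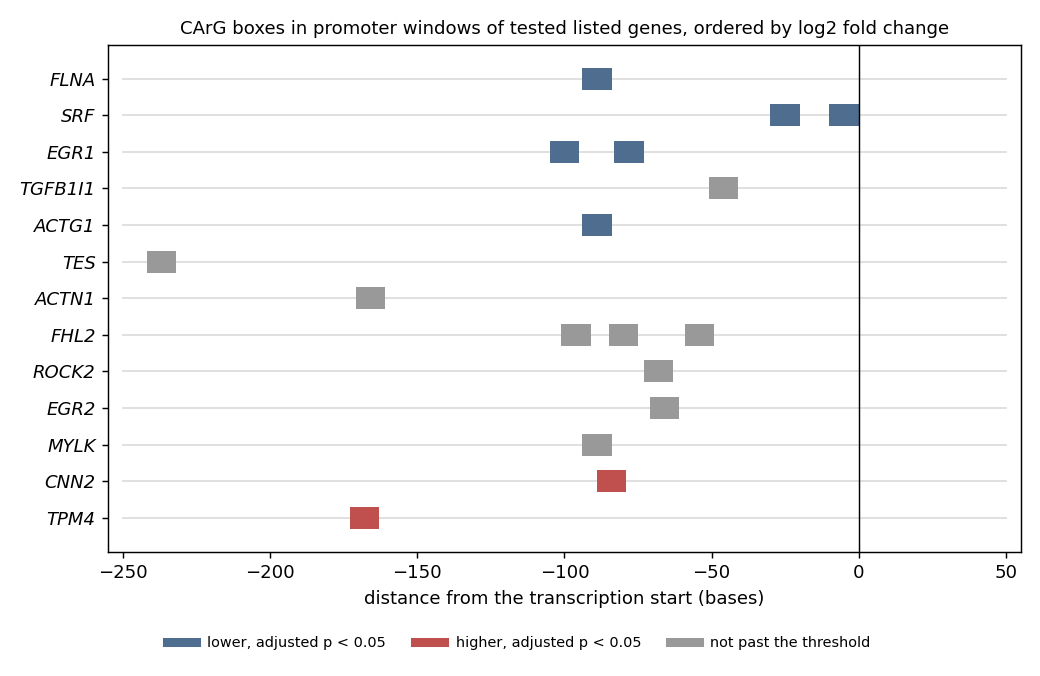
Place of each CArG box in the promoter windows of tested listed genes, in bases from the transcription start, with genes ordered by log2 fold change and coloured by their call. FLNA and SRF stand at the lower end and TPM4 and CNN2 at the higher end, and genes with more than 1 window are drawn over all their windows.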

How the data were processed

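HT29 cells were treated with siALDOA or siControl for 48 h, with 3 libraries each, grouped by their labels. The authors used TopHat2 for alignment to hg38 and gfold for counting, and deposited raw counts per gene symbol. Which annotation and strand setting were used, and how reads with several matches were treated, is not given in the sources used here, and some copies of a ribosomal RNA gene carried the same counts.

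The counts were analysed in R 4.3.3 with edgeR 4.0.16 (filterByExpr, TMM scaling, quasi-likelihood test, no covariate, Benjamini-Hochberg adjusted p of 0.05 over 15307 genes). CPM used TMM-scaled totals, 95% intervals came from the log2 fold change and its SE, and both cover the spread between libraries only. The code of the fit was also run on counts simulated from these data, which is a check of the code and not of the results. Alternatives were DESeq2 1.42.0, limma-voom 3.58.1, other scalings and filters, leaving out each library and a replicate block. Leaving ribosomal RNA genes out of library totals, a GC content and length offset and 6 ratios of counts, of which 3 were tested and 2 are reported here, were added after the data were seen.

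Members and lists were chosen with earlier results of these data known. Named were all members, ALDOA, and in each list the genes past the threshold and up to 3 of the others with the highest CPM, of which some are not reported. MRTFA, ELK3 and TPM2, to complete their families, and listed genes with a CArG box were named outside this rule, after their values were seen. Positions and transcript lengths came from GENCODE 44 (hg38), promoter windows from RefSeq (GRCh38.p14), and figures from matplotlib 3.10.9.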

Additional observations from a re-analysis of the deposited data

How the results depend on the processing

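SRF and FLNA kept their calls in all 17 alternative settings, and ACTG1 in 13. Leaving out each library in turn gave 359 to 644 genes higher and 471 to 790 lower among all genes tested, and 2 to 4 higher and 6 to 11 lower among the other actin and SRF genes. With library totals only, which moved the median of all genes to 0.0753, 279 genes were lower among all genes and 5 among the other actin and SRF genes. That scaling turned the log2 fold changes of ACTB (0.0494), TAGLN (0.0043) and CFL1 (0.0286) to above 0. With each library left out, the value of ACTB ran from -0.0596 to 0.0194, and it was above 0 without siALDOA replicate 1 (0.003) and siControl replicate 3. None of these values passed the test, and the cause was not tested.

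A replicate block gave 987 genes higher and 1175 lower and left the members' calls as they were. Same-numbered libraries correlated at 0.035, 0.027 and 0.026 in their deviations from the group means, and each library correlated best with its own number. These correlations are small and do not settle whether the numbers mark a pairing, which the labels do not state. The GC content and length offset gave 808 genes higher and 1153 lower. MYL9, with at most 10 counts per library, had an SE of 0.873 without a filter, and differences of the size seen in VCL and TPM1 did not pass with 3 libraries a group.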
